A study of Homo sapiens with 12 samples.

Results

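Small nucleolar RNA (snoRNA) host genes were followed across 4 treatments of KP4, an established human cell line that the labels describe as pancreatic ductal cell carcinoma. The genes were chosen by name, as every gene called SNHG followed by digits together with GAS5, ZFAS1, DANCR and EPB41L4A-AS1, and 3 other noncoding RNAs (CYTOR, MALAT1 and NEAT1) were kept beside them for contrast. The names matched 32 host genes, of which SNHG18 and SNHG28 were at 0 in every library, so 30 host genes and the 3 contrast RNAs remained, which is 33 of the 26798 genes with any value above 0 and of the 36601 genes in the table. Cells with no engineered change were given vehicle (DMSO), 10 mM metformin (Met), 5 nM FK866 (FK) or 10 mM metformin with 5 nM FK866 (Met+FK) for 24 h, and total RNA depleted of ribosomal RNA was sequenced in 3 libraries per treatment. Metformin blocks respiratory complex I in mitochondria, and FK866 inhibits NAMPT, the enzyme that salvages nicotinamide for NAD synthesis. The labels number the libraries of each treatment as replicates but do not say whether they came from separate cultures, so p-values measure the spread between these libraries, and all of them come from 1 cell line.

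The libraries held 30667735 to 41052203 read pairs counted in genes (median 34767231). Values are normalized counts, that is read pairs per gene divided by a scaling factor for the library, and they are not corrected for gene length. As expression checks of the line, the keratins KRT8 (2217 to 3222) and KRT18 (9398 to 18720) and the ductal factor SOX9 (3405 to 5140) were present. The keratin KRT7 was lower (209 to 314). The ductal keratin KRT19 (14.6 to 75.0), MUC1 (66.1 to 157), EPCAM (3.78 to 12.5) and CDH1 (24.2 to 86.5) were low. The mesenchymal gene VIM was high (93660 to 121900). The acinar genes AMY2A and CPA1 were at 0 throughout and PRSS1 reached at most 1.65. CD3E reached at most 1.02 and CDH5 at most 7.16, while PTPRC (101 to 304) and CD68 (721 to 1010) were above 0.

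SnoRNAs guide the chemical modification of ribosomal RNA: those with boxes C and D direct ribose methylation, and those with boxes H and ACA direct pseudouridylation. Most human snoRNAs lie in introns, are released when the host transcript is spliced, and are trimmed and bound by their own proteins, while the spliced exons are left as a separate RNA with little coding capacity. Several of these leftover RNAs are known to be exported, to meet ribosomes and to be degraded by nonsense-mediated decay, and several begin with a 5′ terminal oligopyrimidine (TOP) tract, the start that ribosomal protein mRNAs carry and that LARP1 and the TOR kinase pathway act on. In the RefSeq annotation, the 27 host genes with enough reads to be tested held 65 snoRNA or small Cajal body RNA genes, of which GAS5 held 11. The snoRNAs themselves were not analysed here, and the values below are those of the host genes. Reads of snoRNAs may be included, also where a snoRNA lies in an intron of the Ensembl canonical transcript. For SNHG1 the GENCODE exons of all transcripts together cover 3976 bases, against 1162 in the canonical transcript. The authors' gene models are not given in the sources used here.

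Start sites are shown first for every tested host found with a TOP-like start, whatever its level. A TOP tract is a feature the choice of genes did not use. RefSeq promoter entries (GRCh38.p14) matched 23 of the 27 tested host genes. A TOP-like start, taken as C at the first transcribed base with the next 4 bases each C or T, was found in 6 of these 23 (26.1%), against 4.04% of 27305 promoters. Those promoters were not limited to genes tested here, so the shares are of unlike sets. The lines give 20 bases before and 30 bases from the start, 5′ to 3′ on the gene's own strand, with the run of C and T from the start in capitals where it met that definition.
SNHG32 (chr6:31834896-31834945, plus strand): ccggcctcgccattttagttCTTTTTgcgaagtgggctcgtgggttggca
ZFAS1 (chr20:49278622-49278671, plus strand): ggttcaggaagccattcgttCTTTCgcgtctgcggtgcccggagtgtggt
SNHG5 (chr6:85678704-85678753, minus strand): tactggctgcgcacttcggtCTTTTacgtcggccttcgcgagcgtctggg
SNHG19 (chr16:2155329-2155378, minus strand): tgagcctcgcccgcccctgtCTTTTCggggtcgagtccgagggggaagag
SNHG4 (chr5:139274081-139274130, plus strand): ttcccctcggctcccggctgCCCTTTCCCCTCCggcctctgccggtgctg
SNHG12 (chr1:28581844-28581893, minus strand): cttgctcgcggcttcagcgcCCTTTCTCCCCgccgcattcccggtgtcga
For comparison, the other 4 host genes that metformin changed by over 1.5-fold and MALAT1 did not meet the definition at the start that RefSeq gives.
GAS5 (chr1:173869016-173869065, minus strand): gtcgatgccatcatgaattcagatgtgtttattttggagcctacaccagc
EPB41L4A-AS1 (chr5:112160506-112160555, plus strand): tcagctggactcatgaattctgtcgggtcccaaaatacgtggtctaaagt
SNHG29 (chr17:16438967-16439016, plus strand): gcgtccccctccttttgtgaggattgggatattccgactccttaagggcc
DANCR (chr4:52712374-52712423, plus strand): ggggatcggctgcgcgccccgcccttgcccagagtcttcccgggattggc
MALAT1 (chr11:65497718-65497767, plus strand): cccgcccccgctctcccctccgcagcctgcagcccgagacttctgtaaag
The absence of the letters holds only for these windows, since a start a few bases away would give another result. RefSeq starts can also lie farther from the gene as deposited. GAS5 spans chr1:173858559-173868882 there, which does not include its window.

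In order to see what metformin alone did to the host genes, Met was compared with DMSO. Metformin raised a group led by SNHG32, GAS5, ZFAS1, EPB41L4A-AS1 and SNHG29, from 1.54-fold to 2.58-fold, and lowered another led by DANCR, to 0.559 of its DMSO level. Of 27 tested host genes, 9 were higher (33.3%) and 5 lower (18.5%) at an adjusted p-value under 0.05 (limma-trend, Benjamini-Hochberg over 15376 genes). Of all genes tested, 24.9% were higher and 25.9% lower, and whether the host genes differ from these shares was not tested. With a fold change over 1.5 as well, 5 host genes were higher and 1 lower, beside 12.8% and 10.2% of all genes. The median log2 fold change over the 27 was 0.09, that of all genes 0.01. With libraries scaled to the same total, which moved the median of all genes to 0.13, 12 host genes were higher and 4 lower. Normalized counts are shares of each library's RNA, so fewer cells and less RNA per cell cannot be told apart in them.

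SNHG32, the host of SNORD48 and SNORD52 (chr6:31834608-31839766, plus strand, in GRCh38), had 1429.9, 1226 and 1155 normalized counts in DMSO and 3742, 3172 and 2933 in Met. The lowest Met library was above the highest DMSO library, and the log2 fold change was 1.37 ± 0.12 (standard error, n = 3 per group, adjusted p = 3.48e-07). GAS5, growth arrest specific 5, whose transcript (chr1:173858559-173868882, minus strand) holds the largest number of snoRNAs among the tested hosts, had 7373, 6639.7 and 6601 normalized counts in DMSO and 14884, 13779 and 12527 in Met. Its log2 fold change was 0.997 ± 0.08 (adjusted p = 1.93e-07), and again the groups did not overlap.

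ZFAS1, which lies antisense to the start of ZNFX1 (chr20:49278178-49299600, plus strand) and holds SNORD12, SNORD12B and SNORD12C, had 4594, 3759 and 3780.0 normalized counts in DMSO and 8844, 7688 and 6596 in Met (log2 fold change 0.93 ± 0.12, adjusted p = 1.75e-05). EPB41L4A-AS1, the host of SNORA13, had 690.1, 586 and 615 in DMSO and 1273, 1024 and 1070.4 in Met (0.83 ± 0.12, adjusted p = 4.71e-05). Both were higher in every Met library than in any DMSO library. SNHG29, the host of SNORD49A, SNORD49B and SNORD65, had 25040.5, 25301 and 23445 in DMSO and 38745, 37694 and 36936 in Met, a log2 fold change of 0.62 ± 0.07 (adjusted p = 4.43e-06), the smallest of the 5 above 1.5-fold. None of these 5 calls was lost when any 1 of the 6 libraries compared was left out.

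The other 4 host genes that rose did so by less than 1.5-fold. SNHG8, the host of SNORA24, had 2447, 2146 and 2086 in DMSO and 3272, 2861 and 2852 in Met (log2 fold change 0.43, adjusted p = 0.00157), and this fell to 0.14 (adjusted p = 0.355) once each library's trend with GC content and transcript length had been taken out. SNHG7, the host of SNORA17A and SNORA17B, had 1590.3, 1336 and 1384 in DMSO and 2142, 1707 and 1837 in Met (0.40, adjusted p = 0.00624). The remaining pair rested on single libraries: SNHG21 (0.35, adjusted p = 0.0439), the host of SCARNA15, lost its call without DMSO replicate 1 or any 1 Met replicate (adjusted p between 0.0678 and 0.186), and SNHG5 (0.27, adjusted p = 0.0258), the host of SNORD50A and SNORD50B, lost it without DMSO replicate 2, DMSO replicate 3 or Met replicate 1 (between 0.0700 and 0.147).

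Of the host genes that metformin lowered, DANCR, whose RNA is known for opposing cell differentiation and which holds SNORA26 (chr4:52712404-52720351, plus strand), had 1906, 1811 and 1774 normalized counts in DMSO and 989.8, 1006 and 1075 in Met. Its log2 fold change was -0.84 ± 0.10 (adjusted p = 8.8e-06), the groups did not overlap, and it was the only host gene that fell by over 1.5-fold in Met or in Met+FK against DMSO or FK. SNHG16, the host of SNORD1A, SNORD1B and SNORD1C, had 20315, 18354 and 19021 in DMSO and 14049, 13176 and 14284 in Met (-0.47 ± 0.07, adjusted p = 8.16e-05). SNHG12, with 3 H/ACA snoRNAs and 1 C/D snoRNA, had 2538, 2153 and 2328 in DMSO and 1712, 1660.2 and 1833 in Met (-0.43, adjusted p = 0.000859). SNHG17, the host of 4 SNORA71 copies, had 3444, 3079.9 and 3232 in DMSO and 2387, 2240.3 and 2766 in Met (-0.40, adjusted p = 0.00367). These 4 kept their calls without any 1 library, whereas SNHG25 (-0.35, adjusted p = 0.0108) did not without Met replicate 2 (adjusted p = 0.0595), and its log2 fold change was -0.02 (adjusted p = 0.790) with the GC and length trend removed and -0.23 (adjusted p = 0.0682) with libraries scaled to the same total.

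The other 13 tested host genes did not pass the test against DMSO. They included SNHG1, with 9 snoRNA genes the second most loaded host, which had 7491, 6390.4 and 6461 in DMSO and 8342, 7155 and 7028 in Met (log2 fold change 0.15 ± 0.09, adjusted p = 0.205). They also included SNHG3, the host of SNORA73A and SNORA73B, which had 14682, 11548 and 11140.5 in DMSO and 10797, 10169 and 10844 in Met (-0.22, adjusted p = 0.0868). The median GC content was 46.3% for the 9 hosts that rose, 54.8% for the 5 that fell and 48.5% for all genes tested, and the values of a library changed with GC content by -0.14 to 0.08 per 10 percentage points (log2) in Met and by 0.04 to 0.20 in DMSO. With the trends with GC content and transcript length removed together, 12 host genes were higher and 6 lower, and SNHG8 and SNHG25 were the only host genes called with Met whose calls were lost. SNHG12 and SNHG17 kept their calls at -0.25 and -0.21.

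**Figure D1:**
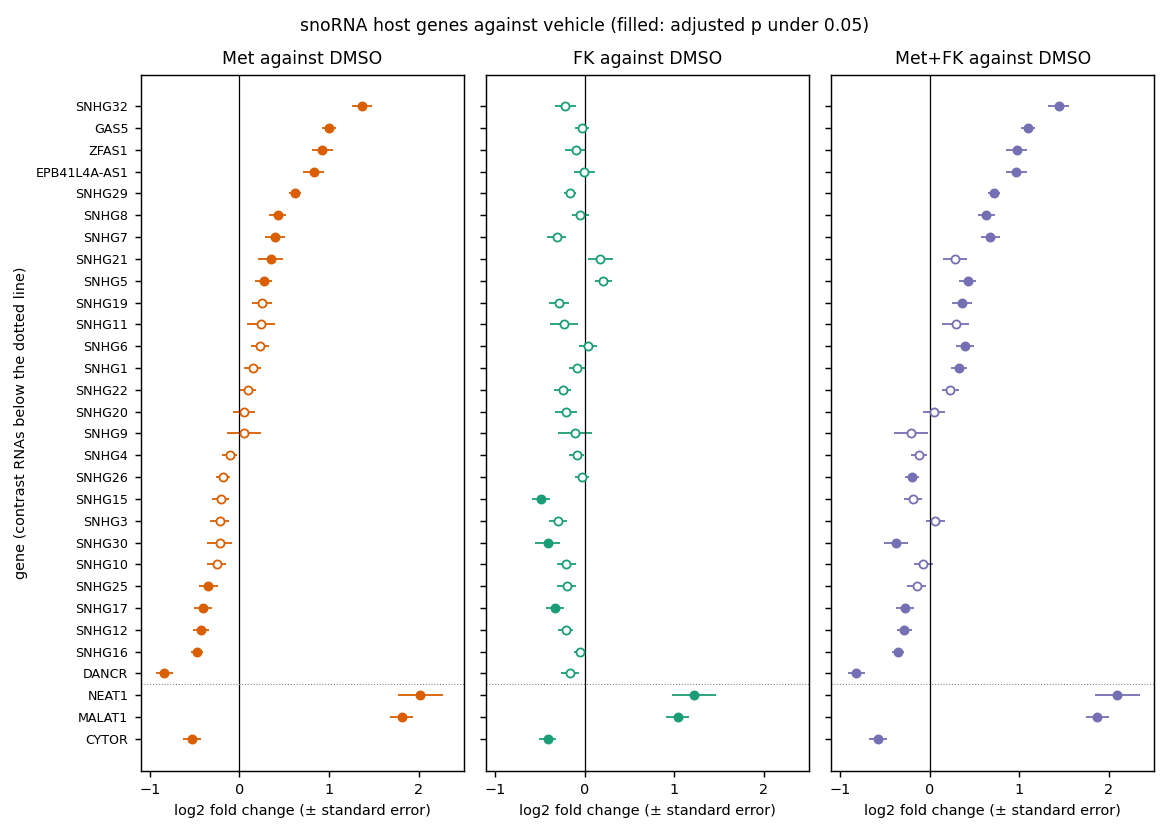
Log2 fold change against DMSO (x axis, ± standard error) of the 27 tested host genes and, below the dotted line, the 3 contrast RNAs (y axis), for Met, FK and Met+FK in 3 panels, with filled points for an adjusted p-value under 0.05. With metformin the host genes spread to both sides, from SNHG32 at 1.37 to DANCR at -0.84, and the Met+FK panel has the same 2 ends, while with FK 24 of 27 host genes lie below 0 and none is past 1.5-fold.

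MALAT1 and NEAT1 rose more than any host gene did. Over the other settings with every library, the log2 fold change of MALAT1 was between 1.51 and 1.93. That of SNHG32 was 1.46 with the GC and length trend removed. MALAT1, an abundant RNA of nuclear speckles, had 32048, 37516 and 33689.5 normalized counts in DMSO and 116466, 123766 and 120955 in Met, a log2 fold change of 1.81 ± 0.13 (adjusted p = 7.09e-08). NEAT1, the RNA scaffold of paraspeckles, had 2685, 2555 and 3128 in DMSO and 12080.1, 10622 and 11169 in Met (2.02 ± 0.25, adjusted p = 1.34e-05). CYTOR, a long noncoding RNA without a snoRNA that is named as a cytoskeleton regulator, had 927, 821 and 852 in DMSO and 617, 549 and 631 in Met (-0.53 ± 0.10, adjusted p = 0.000412). CYTOR fell, and the groups did not overlap in any of the 3. The share of all genes whose groups did not overlap is not given here, so this is only a description.

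**Figure D2:**
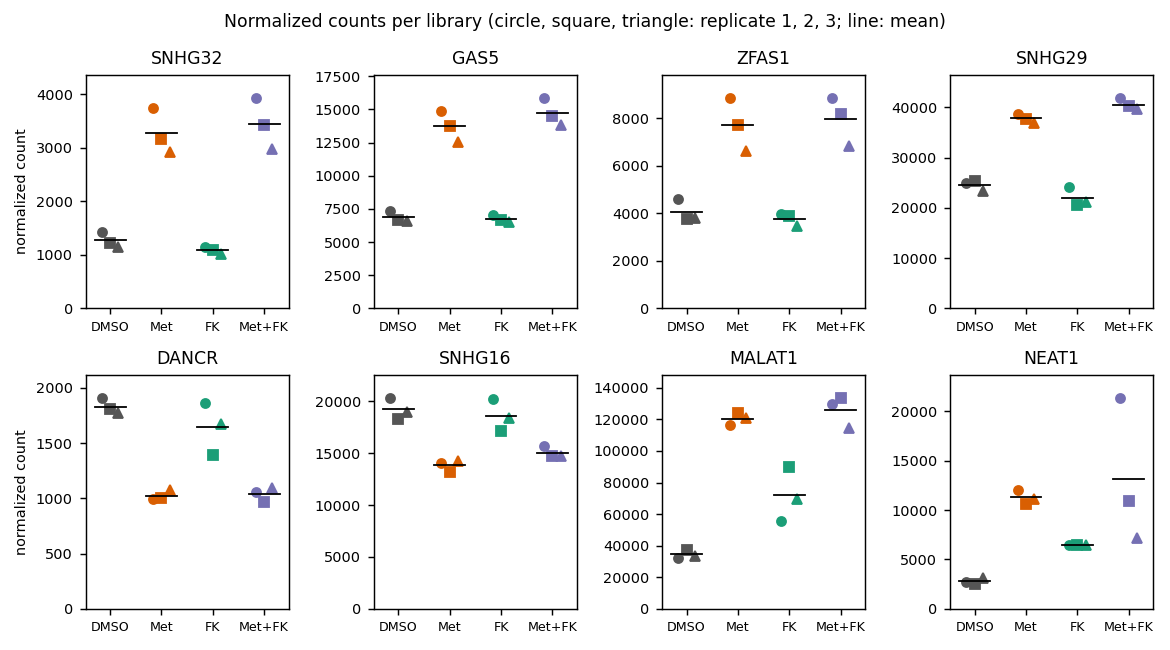
Normalized counts (y axis, from 0) of 6 host genes, MALAT1 and NEAT1 in each library by treatment (x axis), with symbols for replicates 1 to 3 and a line at the mean. SNHG32, GAS5, ZFAS1 and SNHG29 are high in both metformin groups and DANCR and SNHG16 low, while MALAT1 and NEAT1 are also above DMSO in FK, and NEAT1 spreads from 7200 to 21333 in Met+FK.

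In order to see what NAMPT inhibition alone did, FK was compared with DMSO. No host gene was higher and 3 were lower (11.1%) at an adjusted p-value under 0.05, beside 11.3% and 9.84% of all genes. In neither direction did a host gene pass 1.5-fold (2.73% and 0.754% of all genes did). At an unadjusted p-value under 0.05, 1 host gene was higher and 9 lower, beside 6488 of all 15376 genes in either direction. No host gene was called higher by edgeR or DESeq2 either. The median log2 fold change over the host genes was -0.16, that of all genes -0.02, and 24 of 27 host genes (88.9%) had a value below 0, against 51.7% of all genes. That number was 23 under each of the other scalings and 21 with the GC and length trend removed, where the median was -0.07.

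The 3 that fell were SNHG15, SNHG17 and SNHG30. SNHG15, the host of SNORA9, had 3214, 2899.6 and 3178 normalized counts in DMSO and 2421, 1937 and 2282 in FK (log2 fold change -0.49 ± 0.10, adjusted p = 0.0136), and the groups did not overlap. SNHG17 had 2915, 2254 and 2636 in FK (-0.33, adjusted p = 0.0372) and did not overlap with DMSO either. SNHG30, the host of SNORD7, had 436, 373 and 315 in DMSO and 324, 248 and 271 in FK (-0.41, adjusted p = 0.0459), with 1 FK library above the lowest DMSO library. SNHG7 was just outside, with 1283, 1073 and 1117 in FK (-0.31, adjusted p = 0.0503). With the GC and length trend removed, SNHG17 was at -0.10 (adjusted p = 0.223) and SNHG7 at -0.07 (0.721), while SNHG15 (-0.41) and SNHG30 (-0.55) kept their calls. Of the hosts that metformin raised most, GAS5 had 7042, 6685 and 6521 in FK (-0.02, adjusted p = 0.832) and SNHG32 1157, 1088 and 1026 (-0.22, adjusted p = 0.165).

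These FK calls depended on single libraries and on the fit. The number of lower host genes was 0 without DMSO replicate 1, 1 without DMSO replicate 3, FK replicate 2 or FK replicate 3, 6 without DMSO replicate 2 and 9 without FK replicate 1. Of the libraries left out in turn, SNHG15 was lost without DMSO replicate 1 (adjusted p = 0.0744), SNHG17 without DMSO replicate 1 or 3 or FK replicate 2 or 3 (between 0.0595 and 0.168), and SNHG30 without any 1 of these libraries other than FK replicate 1 (between 0.0560 and 0.194). With only the 6 libraries compared in the fit, all 3 were lost (0.0523, 0.0784 and 0.0918). SNHG30 was also lost under each of the other scalings (0.0549 and 0.0508) and with edgeR (0.0548). Libraries of the same number in DMSO and FK deviated together, and in a fit blocked on the replicate number 11 host genes were lower and 1 was higher. The share of all genes called in that fit is not given here, so these counts are not read as particular to host genes. The 11 were SNHG3, SNHG7, SNHG11, SNHG12, SNHG15, SNHG17, SNHG19, SNHG22, SNHG29, SNHG30 and SNHG32, with adjusted p-values between 0.000140 and 0.0454, and SNHG5 was higher (log2 fold change 0.21, adjusted p = 0.0149). With the GC and length trend removed as well, 7 were lower and 1 higher, but only SNHG3, SNHG15 and SNHG30 of the 11 were among the 7, and the others were SNHG4, SNHG6, SNHG8 and ZFAS1. SNHG5 was again the one that was higher.

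The contrast RNAs were all called. With FK, MALAT1 had 55801, 90074 and 69718 normalized counts (log2 fold change 1.04 ± 0.13, adjusted p = 0.000423), NEAT1 had 6468, 6446 and 6502 (1.22 ± 0.25, adjusted p = 0.0136) and CYTOR had 694, 635 and 623 (-0.41 ± 0.10, adjusted p = 0.0210). None of these overlapped with DMSO, and the share of all genes without overlap is not given here either. With the GC and length trend removed MALAT1 was at 0.72. The NEAT1 call was lost without DMSO replicate 1 (adjusted p = 0.0715) or with the GC and length trend removed (0.0504), and the CYTOR call without DMSO replicate 1 or 3 or FK replicate 2 (between 0.0566 and 0.107) or with only the libraries compared (0.0581).

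With both drugs, the host genes that metformin had raised were high again. Against DMSO, Met+FK had 11 host genes higher (40.7%) and 6 lower (22.2%), where 26.1% of all genes were higher and 26.1% lower. Over 1.5-fold, 7 host genes were higher and 1 lower (13.7% and 11.3% of all genes). The median log2 fold change was 0.23, that of all genes 0.01. With libraries scaled to the same total 14 were higher and 2 lower, and with the GC and length trend removed 16 and 5. SNHG32 had 3934, 3436 and 2983 normalized counts (1.44 ± 0.12, adjusted p = 1.52e-07) and GAS5 had 15872, 14539.5 and 13830.3 (1.10 ± 0.08, adjusted p = 5.25e-08). ZFAS1 (0.97), EPB41L4A-AS1 (0.97) and SNHG29 (0.72) were again over 1.5-fold, and SNHG7 (0.68, adjusted p = 0.000104) and SNHG8 (0.63, adjusted p = 6.01e-05) were so here. SNHG8 was called but under 1.5-fold with the GC and length trend removed (0.40) or without Met+FK replicate 1 (0.56). SNHG5 (0.43), SNHG6 (0.39), SNHG19 (0.36) and SNHG1 (0.33) rose by less. With that trend removed SNHG19 was at 0.61. Of these, SNHG1 lost its call without Met+FK replicate 1 (adjusted p = 0.0590) and SNHG19 without DMSO replicate 2 or 3 or Met+FK replicate 1 (between 0.0537 and 0.0632).

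DANCR had 1057, 966 and 1092 normalized counts in Met+FK (-0.82 ± 0.10 against DMSO, adjusted p = 8.26e-06) and SNHG16 had 15669.9, 14694 and 14729.8 (-0.35 ± 0.07, adjusted p = 0.000795). SNHG30 (-0.38), SNHG12 (-0.28), SNHG17 (-0.28) and SNHG26 (-0.20), a host of SNORD93, were also lower. Each of these 4 calls was lost without some libraries: SNHG12 without DMSO replicate 1 or Met+FK replicate 2 (adjusted p = 0.0686 and 0.0604), SNHG17 without DMSO replicate 1 or 3 or Met+FK replicate 2 or 3 (between 0.0502 and 0.111), SNHG30 without DMSO replicate 1 or 2 or Met+FK replicate 2 or 3 (between 0.0617 and 0.157), and SNHG26 without any 1 library other than DMSO replicate 2 (between 0.0565 and 0.121). With libraries scaled to the same total these 4 were also not called (adjusted p between 0.0516 and 0.197). With the GC and length trend removed SNHG16 was at -0.21 and SNHG12 at -0.13, both still called, and SNHG17 was at -0.11 (adjusted p = 0.0602). The number of lower host genes was 2 without DMSO replicate 1 or Met+FK replicate 2, and 3 without Met+FK replicate 3.

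Set against FK, which is the effect of metformin in cells that also had FK866, Met+FK had 14 host genes higher (51.9%) and 2 lower (7.4%). Beside these, 20.5% and 21.7% of all genes were higher and lower. Over 1.5-fold, 8 host genes were higher and 1 lower (9.27% and 9.29% of all genes). The median was 0.30, that of all genes -0.01. The 8 were SNHG32 (1.65), GAS5 (1.13), ZFAS1 (1.07), SNHG7 (0.99), EPB41L4A-AS1 (0.97), SNHG29 (0.89), SNHG8 (0.68) and SNHG19 (0.65), and DANCR (-0.65) and SNHG16 (-0.30) were the 2 that fell. Those that rose by less were SNHG11 (0.52), SNHG22 (0.48), SNHG1 (0.41), SNHG3 (0.36), SNHG6 (0.36) and SNHG15 (0.30). The comparisons of Met and Met+FK with DMSO share the DMSO libraries, and those of Met+FK with DMSO and with FK share the Met+FK libraries. SNHG11 lost its call without FK replicate 2 or Met+FK replicate 1 (adjusted p = 0.0523 and 0.0726), SNHG15 without FK replicate 2 or Met+FK replicate 1 or 3 (between 0.0570 and 0.117), and SNHG6 without FK replicate 3 or Met+FK replicate 1 (0.0572 and 0.0531).

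Summed over the 27 tested host genes, the share of all normalized counts was 0.275% to 0.296% in the DMSO libraries, 0.351% to 0.381% in Met, 0.244% to 0.278% in FK and 0.367% to 0.408% in Met+FK. The Met and Met+FK libraries were all above the DMSO and FK libraries. This sum is weighted towards the most abundant hosts. The mean of SNHG29 went from 24595.5 in DMSO to 37791.7 in Met, and that of GAS5 from 6871 to 13730. That of SNHG16 went from 19230 to 13836. Of the 27 hosts, 16 had a log2 fold change above 0 in Met against DMSO and 11 below 0. The share of MALAT1 alone was 0.0870% to 0.105% in DMSO and 0.352% to 0.377% in Met. Divided by the summed length of its GENCODE exons, SNHG16 had the highest level in DMSO (3329 normalized counts per kilobase), followed by SNHG3 (3047), SNHG29 (2749), SNHG1 (1705) and GAS5 (1393). Divided by the length of the Ensembl canonical transcript, the same 5 host genes had the highest levels but SNHG29 came first (55520) and SNHG16 second (38614). The authors' gene models are not given in the sources used here, so this order is uncertain.

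The 3 host genes with a mean under 10 normalized counts were not tested. SNHG31 had 9, 7 and 9 read pairs in the DMSO libraries, 2, 5 and 9 in Met, 3, 5 and 1 in FK and 5, 3 and 4 in Met+FK. The DMSO values of SNHG31 were above those of FK and Met+FK, but this was left untested at so few read pairs. SNHG27 had 3 to 11 read pairs in any library and SNHG14, the long host of a large C/D snoRNA cluster, 0 to 6.

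In order to see whether FK866 changed the host genes in metformin-treated cells, Met+FK was compared with Met. No host gene was called in either direction by limma-trend, edgeR or DESeq2, where 0.0911% of all genes were higher and 0.0065% lower, and at an unadjusted p-value under 0.05 there were 3 higher (SNHG3, SNHG7 and SNHG8) and 0 lower. The median log2 fold change was 0.11, that of all genes 0.01, and 21 of 27 values were above 0. SNHG7 had 2529, 2099.5 and 2259 normalized counts in Met+FK against 2142, 1707 and 1837 in Met (0.28 ± 0.11, adjusted p = 0.624). SNHG3 had 12840.3, 12304 and 13626 in Met+FK against 10797, 10169 and 10844 in Met (0.28 ± 0.10, adjusted p = 0.575), and only SNHG3 of these did not overlap. Libraries of the same number in Met and Met+FK deviated together, and in a fit blocked on the replicate number SNHG7 was called (adjusted p = 0.0316). With the GC and length trend removed as well, SNHG1 (0.21, adjusted p = 0.0333) and SNHG6 (0.20, adjusted p = 0.0291) were called instead of it, although with that trend removed the correlations of same-numbered libraries were 0.159, 0.0964 and 0.0738, so that the pairing no longer held for every number.

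**Figure D3:**
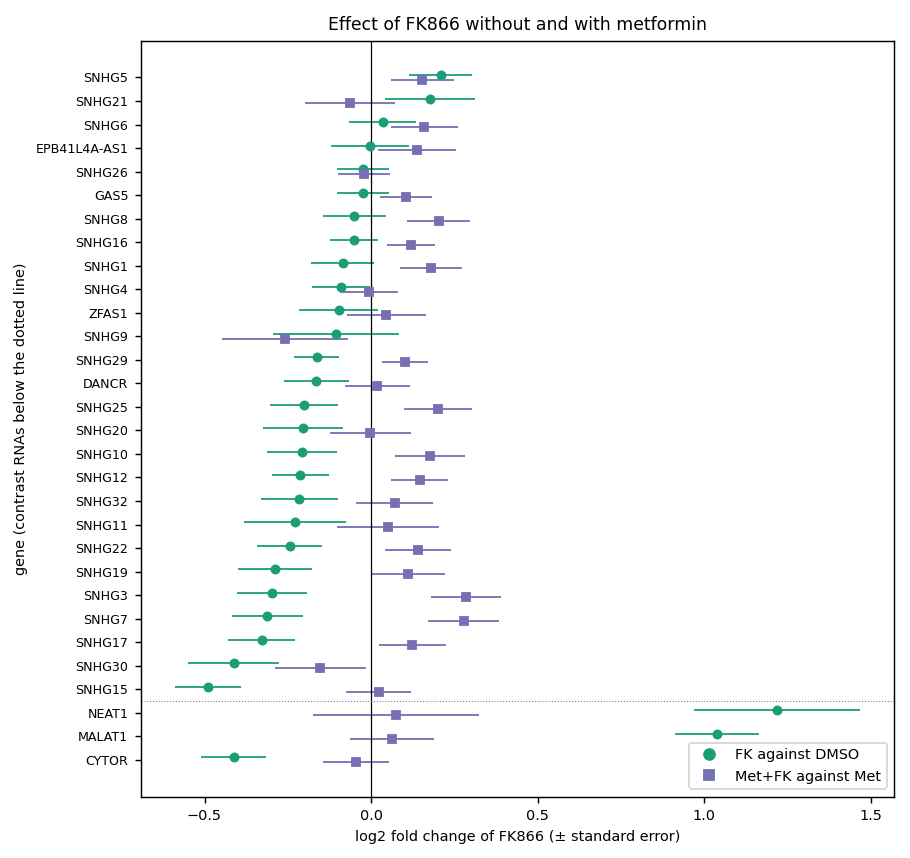
Log2 fold change of FK866 (x axis, ± standard error) without metformin (FK against DMSO, circles) and with it (Met+FK against Met, squares) for the 27 tested host genes and the 3 contrast RNAs (y axis). For 24 of 27 host genes the square lies to the right of the circle, and for MALAT1 and NEAT1 it lies far to the left.

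The interaction, that is the log2 fold change of Met+FK against Met less that of FK against DMSO, was above 0 in 24 of 27 host genes, with a median of 0.26 (all genes 0.02). Of all genes tested, 48.7% were below 0. The number of host genes above 0 was 23 under each of the other scalings and 24 with the GC and length trend removed. No host gene was called by limma-trend, where 0.0065% of all genes were higher and 0.052% lower. At an unadjusted p-value under 0.05, 10 host genes were higher and 0 lower, beside 4695 of all 15376 genes in either direction. DESeq2 called 3, namely SNHG3, SNHG7 and SNHG15 (adjusted p between 0.0248 and 0.0367), and edgeR called 0. The values were 0.59 ± 0.15 for SNHG7 (adjusted p = 0.109), 0.58 ± 0.15 for SNHG3 (0.108), 0.51 ± 0.14 for SNHG15 (0.111) and 0.45 ± 0.14 for SNHG17 (0.111). In the fit blocked on the replicate number 13 host genes were higher and 0 lower, and 5 were higher with the GC and length trend removed as well (SNHG1, SNHG3, SNHG6, SNHG8 and SNHG15, of which 4 were among the 13), where the pairing of Met with Met+FK no longer held for every number. The block takes 1 effect per number over all 4 treatments. Same-numbered libraries were taken as paired only for DMSO with FK and Met with Met+FK. The share of all genes called with the block is not given here. With that trend removed SNHG7 was at 0.28 (adjusted p = 0.352) and SNHG17 at 0.20 (0.205). Without FK replicate 1 the number was 7, and without any other 1 library it was 0. Of the leading host genes with metformin, SNHG32 was at 0.29 (adjusted p = 0.235) and SNHG29 at 0.27 (0.115), both called with the replicate block (0.0227 and 0.0203). GAS5 was at 0.13 (0.427), ZFAS1 at 0.14 (0.558) and EPB41L4A-AS1 at 0.14 (0.570), none of them called with it.

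MALAT1 and NEAT1 went the other way. In Met+FK, MALAT1 had 129970.0, 133432 and 114530.0 normalized counts, 0.06 ± 0.13 from Met (adjusted p = 0.962), and its interaction was -0.97 ± 0.18 (adjusted p = 0.0711, 0.00235 with the replicate block and 0.000319 with DESeq2). It was called without FK replicate 1 (adjusted p = 0.00790) or FK replicate 2 (0.0332), and with the GC and length trend removed (-0.62, 0.0352). NEAT1 had 21333, 10909.5 and 7200.0 in Met+FK, a wide spread around an interaction of -1.14 ± 0.35 (adjusted p = 0.111, 0.0150 with the replicate block and 0.0143 without Met+FK replicate 1). Against DMSO, MALAT1 was higher by 1.87 and NEAT1 by 2.10 in Met+FK.

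Many host genes share their locus with another gene. Of the 27 tested, 17 overlap a gene of the table, and the strand setting of the counting is not given in the sources used here, so reads of a host and of an overlapping gene on the other strand may have been mixed and those values are uncertain. For 18 hosts, 21 pairs with a tested neighbour that overlaps or starts within 1000 bases on the other strand were compared in Met against DMSO. Host and neighbour both rose in 2 pairs, both fell in 1, moved in opposite directions in 2, only 1 gene of the pair was called in 11 and neither in 5. Of all genes tested, 24.9% were higher and 25.9% lower in this comparison. Whether these pairs differ from other pairs of genes was not tested.

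GAS5 rose beside ZBTB37, a zinc finger gene on the other strand (0.67 ± 0.14, adjusted p = 0.000995, and 0.25 with the GC and length trend removed). ZFAS1 rose while ZNFX1, a zinc finger helicase gene, had 0.03 ± 0.08, adjusted p = 0.817, a value whose sign turned without DMSO replicate 2 or Met replicate 1 (-0.04 and -0.02). SNHG29 rose with LRRC75A on the other strand (0.42 ± 0.14, adjusted p = 0.0186), which had 70.4 to 76.7 normalized counts in DMSO and lost its call without DMSO replicate 1 or Met replicate 1 (adjusted p = 0.0611 and 0.0751). SNHG12 and TRNAU1AP, a selenocysteine tRNA-associated gene, were the pair that fell together (-0.44 ± 0.10, adjusted p = 0.00214 for the latter).

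SNHG1 starts back to back with SLC3A2, the heavy chain of several amino acid transporters, which rose (0.68 ± 0.09, adjusted p = 2.76e-05) while SNHG1 was not called. SNHG3 lies wholly within RCC1, a chromatin-bound exchange factor for RAN, on the same strand, and RCC1 fell (-0.73 ± 0.08, adjusted p = 5.42e-06). SNHG7 rose as DIPK1B fell (-0.44 ± 0.11, adjusted p = 0.00331, and -0.25 with the GC and length trend removed). The other opposite pair was SNHG8 with PRSS12, a serine protease gene that lost its call without DMSO replicate 3 or Met replicate 2 (adjusted p = 0.116 and 0.0843) and with libraries scaled to the same total (-0.13, adjusted p = 0.220).

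**Figure D4:**
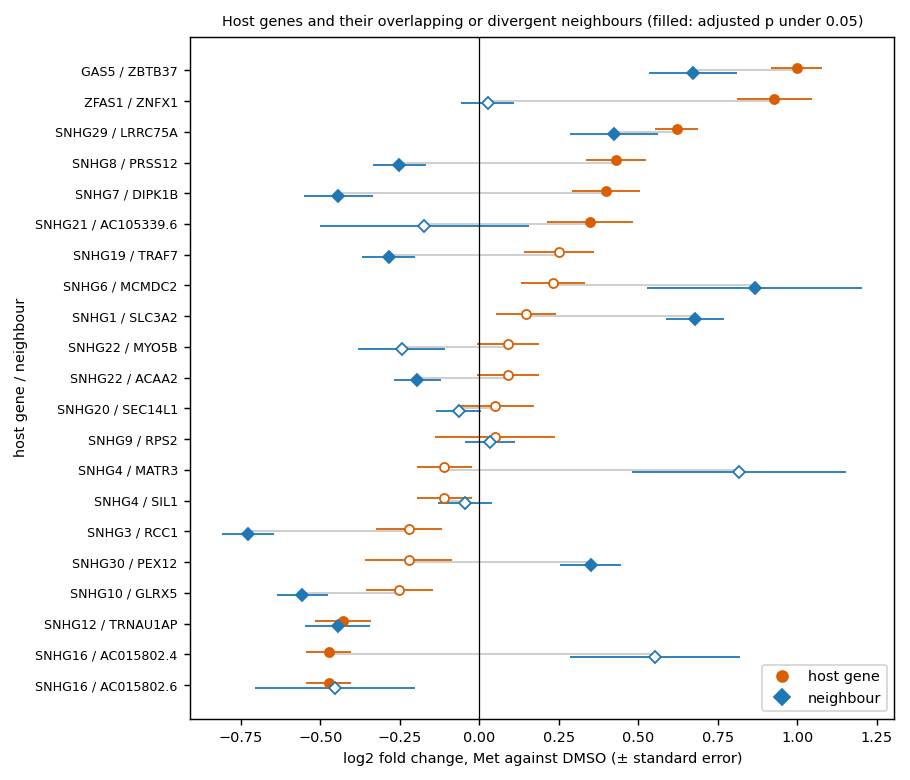
Log2 fold change of Met against DMSO (x axis, ± standard error) for host genes (circles) and their overlapping or divergent neighbours (diamonds), 1 pair per row (y axis), with filled symbols for an adjusted p-value under 0.05. The pair GAS5 and ZBTB37 lies to the right with both genes, SNHG12 and TRNAU1AP to the left, and SNHG7 and DIPK1B lie on opposite sides.

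What the hosts carry did not divide them cleanly in Met against DMSO. Of 10 hosts with box C/D snoRNAs only, 4 were higher and 1 lower (median log2 fold change 0.24, from -0.47 to 1.37). Of 10 with box H/ACA snoRNAs only, 3 were higher and 2 lower (median -0.03, from -0.84 to 0.83). The 3 with both kinds were GAS5, which rose, and SNHG12 and SNHG25, which fell, and of 4 with a small Cajal body RNA only, SNHG21 was higher. Beside these counts, 24.9% of all genes tested were higher and 25.9% lower. The differences between these groups were not tested.

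Start sequences shown above were also set beside the calls. Differences between hosts with and without a TOP-like start were not tested. Of the 6 hosts with a TOP-like start, SNHG32, ZFAS1 and SNHG5 were higher with metformin, SNHG12 was lower, and SNHG19 (0.25, adjusted p = 0.0730) and SNHG4 (-0.11, adjusted p = 0.306) were not called (median 0.26). Of the 17 without one, 6 were higher and 3 lower (median 0.09). The shares of all genes tested were 24.9% higher and 25.9% lower. SNHG4, with the longest run at 13 bases, had 0.01 when libraries were scaled to the same total. Other motifs were searched on both strands of the 300 bases around each start (250 before, 50 after). CACGTG, the E-box that MYC is known to bind, was present in 2 of the 23 hosts (8.70%), SNHG7 and SNHG30, against 7.43% of all promoters, and TGATGNAA, the letters of the element that ATF4 and CEBP factors bind, in 0 against 3.67%.

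Genes that work on snoRNAs or on host transcripts were described from lists, whose counts stand beside the shares of all genes given above, namely 24.9% higher and 25.9% lower in Met, 11.3% and 9.84% in FK and 26.1% and 26.1% in Met+FK against DMSO. Of 20 tested genes for snoRNA-bound proteins and their assembly, 1 was higher (5.0%) and 12 lower (60.0%) with Met (median log2 fold change -0.37). Those lower included FBL, the methyltransferase of box C/D particles (-0.50 ± 0.08, adjusted p = 0.000167, and -0.31 with the GC and length trend removed), its partner NOP56 (-0.77 ± 0.09, adjusted p = 6.93e-06) and DKC1, the pseudouridine synthase of box H/ACA particles (-0.39 ± 0.08, adjusted p = 0.000938). The one higher was ZNHIT6, an assembly factor (0.39 ± 0.14, adjusted p = 0.0312), which lost its call without DMSO replicate 1 or 3 or Met replicate 1 or 2 (adjusted p between 0.0926 and 0.123) and with the GC and length trend removed (0.08, adjusted p = 0.209). In FK 0 were higher and 7 lower, and in Met+FK 2 were higher and 12 lower against DMSO.

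Of 18 tested genes for nonsense-mediated decay and decapping or exonucleolytic decay, 3 were higher (16.7%) and 5 lower (27.8%) with Met (median 0.09), which is near the shares of all genes. SMG1, the kinase of UPF1, was higher (0.88 ± 0.11, adjusted p = 2e-05) with CASC3 and XRN1, and UPF1, the central helicase (-0.42 ± 0.09, adjusted p = 0.00128), and SMG5, which binds its phosphorylated form (-0.47 ± 0.08, adjusted p = 0.000371), were lower with EIF4A3, RBM8A and SMG8. With the GC and length trend removed SMG1 was at 0.54 and UPF1 at -0.26, both still called. XRN1, the 5′ to 3′ exonuclease (0.48 ± 0.18, adjusted p = 0.0427), lost its call without DMSO replicate 1 or 3 or Met replicate 1 or 2 (adjusted p between 0.0947 and 0.196) and with the GC and length trend removed (0.10, adjusted p = 0.219). In FK 2 were higher and 1 lower, and in Met+FK 3 were higher and 5 lower against DMSO.

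Of 39 tested protein-coding genes that also host snoRNAs, 5 were higher (12.8%) and 14 lower (35.9%) with Met (median -0.07). EIF4A2, a translation initiation helicase, was higher (0.55 ± 0.09, adjusted p = 0.000256), as were the mitochondrial chaperone HSPA9 (0.72 ± 0.07, adjusted p = 7.29e-07) and RPL12, EIF5 and RPL3, while EIF4A1, the paralogue of EIF4A2 (-0.61 ± 0.08, adjusted p = 2.02e-05), nucleolin NCL (-0.46 ± 0.09, adjusted p = 0.000707) and the chaperone HSPA8 (-0.72 ± 0.07, adjusted p = 1.68e-06) were lower, and the ribosomal protein gene RPL13A had 0.09 ± 0.08, adjusted p = 0.347. EIF5 (0.32) lost its call without DMSO replicate 1 or 3 or Met replicate 2 (adjusted p between 0.0609 and 0.113) and with the GC and length trend removed (0.07, adjusted p = 0.375), and RPL3 (0.18, but 0.34 with that trend removed) without any 1 library other than DMSO replicate 1 (between 0.0540 and 0.150). In FK 4 were higher and 10 lower, and in Met+FK 8 were higher and 13 lower against DMSO.

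Of 14 tested TOR pathway and TOP mRNA regulators, 4 were higher (28.6%) and 3 lower (21.4%) with Met (median 0.06), near the shares of all genes. Those higher were DDIT4 (1.87 ± 0.08, adjusted p = 7.28e-10) and SESN2 (2.24 ± 0.12, adjusted p = 7.78e-09), both known inhibitors of TOR signalling, TSC1, a subunit of the complex that holds RHEB inactive (0.42 ± 0.08, adjusted p = 0.000370), and the transcription factor MYC (0.38 ± 0.07, adjusted p = 0.000497). Those lower were the S6 kinase gene RPS6KB2 (-0.68 ± 0.09, adjusted p = 2.37e-05), the cap-binding inhibitor EIF4EBP2 (-0.65 ± 0.07, adjusted p = 3.36e-06) and RPTOR, the scaffold of TOR complex 1 (-0.28 ± 0.11, adjusted p = 0.0451). RPTOR lost its call without DMSO replicate 1 or 3 or Met replicate 1 or 2 (adjusted p between 0.116 and 0.174), under each of the other scalings (0.0693 and 0.216) and with edgeR and DESeq2 (0.0748 and 0.0529). CASC3, EIF4A3, RBM8A, SMG8, ZNHIT6, HSPA9, RPL12, EIF5, RPL3, TSC1, RPS6KB2, EIF4EBP2 and RPTOR were chosen after their values were seen, since they complete sets of 5 or fewer called genes. In FK 1 was higher and 2 lower, and in Met+FK 4 were higher and 3 lower.

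All 7 tested paraspeckle protein genes were lower with Met (median -0.55), among them SFPQ (-0.93 ± 0.06, adjusted p = 2.65e-08) and NONO (-0.52 ± 0.06, adjusted p = 1.03e-05), while NEAT1, the RNA they bind, was higher. In FK 0 of these were higher and 2 lower, and in Met+FK 0 were higher and 7 lower.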

How the data were processed

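RNA of KP4 cells was measured in 12 libraries, 3 per treatment. According to the methods, the authors used cutadapt for trimming, STAR for alignment (hg38), featureCounts for counting and DESeq2 for normalization. The gene annotation and strand setting are not given in the sources used here, and reads shared by overlapping genes or near-identical copies can raise or lower a value. The deposited values are a signal that is never negative, namely counts divided by 1 size factor per library, and whole read pairs were recovered for 100% of values within 0.01 reads. Libraries held 30667735 to 41052203 read pairs, and since the replicates carry the error, no counting intervals were computed. Replicates differed by more than sampling noise, so each was counted as 1 sample. Table positions were shifted to count from 1, after which 83.6% of the genes found in GENCODE 44 had the same start and end.

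Treatments were taken from the labels. The test was limma-trend (limma 3.58.1, R 4.3.3) on log2(normalized count + 1), fitted to the 12 libraries together, for the 15376 genes whose mean reached 10, with Benjamini-Hochberg adjustment per comparison. It was tested on simulated data first. Fold changes are on this log2 scale and understate those of low genes. The members, lists and tests were chosen with earlier results of these data known. Named genes were every member, its overlapping or divergent neighbours and a fixed set from each list, a few of which are not reported here. Start sites and snoRNAs are from RefSeq (GRCh38.p14). The settings varied were the pseudocount (0.1 and 10), the filter (every gene with a value above 0), TMM (edgeR 4.0.16) and same-total scaling, a loess trend (span 0.3) on GC content and canonical transcript length removed (known for 99.7% of genes), the replicate number as a block, both together, only the libraries compared, quasi-likelihood (edgeR) and Wald (DESeq2 1.42.0) tests on recovered read pairs, the fold rule, and each library left out. Same-numbered libraries were taken as paired where the correlation of their deviations from the group means over genes exceeded 0.1 for every number. This held for DMSO with FK (0.252, 0.420 and 0.219) and Met with Met+FK (0.171, 0.200 and 0.226), although the labels do not say what a number marks.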

Additional observations from a re-analysis of the deposited data

How the results depend on the processing

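Counts of host genes are given as higher and lower in each comparison. Shares of all genes are given above only for limma-trend before any setting was varied, not for the counts here. With the replicate number as a block, Met against DMSO had 13 and 10 (15 and 10 with the GC and length trend removed too), FK against DMSO 1 and 11 (1 and 7), Met+FK against DMSO 13 and 7, Met+FK against FK 16 and 3 (16 and 4), Met+FK against Met 1 and 0 (2 and 0) and the interaction 13 and 0 (5 and 0). In the comparisons of Met with DMSO, Met+FK with DMSO and Met+FK with FK the libraries share only a number, since a correlation of same-numbered libraries was as low as 0.0129, 0.0186 and 0.0461, and 4, 3 and 5 of 6 libraries correlated best with their own number. The GC and length trend alone gave 4 lower for Met+FK against FK. With libraries scaled to the same total 2 were lower for Met+FK against DMSO. FK against DMSO had 5 lower with DESeq2, 1 with all genes tested and 0 with only the libraries compared, and DESeq2 gave 3 higher in the interaction. The rule of over 1.5-fold gave 5 and 1 for Met, 0 lower for FK, 7 and 1 for Met+FK against DMSO and 8 and 1 against FK. Leaving out 1 library gave 7 to 9 higher and 4 to 6 lower for Met, 0 higher and 0 to 9 lower for FK, 10 to 11 and 2 to 5 for Met+FK against DMSO, 11 to 15 and 2 for Met+FK against FK, 0 for Met+FK against Met, and 0 to 7 higher and 0 lower for the interaction. The other counts, 117 over all settings with every library, stayed within 1.5 times. For single genes, 1246 of 1342 values with every library kept their direction and side of the threshold, as did 713 of 804 with 1 library left out. Signs turned for SNHG4 in Met with the same total (0.0118), for GAS5 in FK with the GC and length trend removed, with or without the block (0.0113), and for single libraries left out, where GAS5 in FK ranged from -0.0557 to 0.0270 (above 0 without DMSO replicate 1) and ZNFX1 in Met from -0.0417 to 0.0748 (below 0 without DMSO replicate 2 or Met replicate 1). The causes were not tested. The 3 host genes under a mean of 10 were limited by depth.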
